A study of Rattus norvegicus with 6 samples.

Results

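The genes described here are the E2F transcription factors E2f1, E2f3, E2f4, E2f5, E2f6, E2f7 and E2f8 and the pocket proteins Rb1, Rbl1 and Rbl2. They were taken by gene symbol from the deposited count table, and all 10 were found among its 17771 genes. All 10 also passed the filter on low counts, which left 14213 genes. The set was chosen by symbol with the log2 fold changes and p-values of this contrast, resveratrol against control in these same 6 libraries, already in view, E2f4 having stood out by its p-value. Those differences are therefore given as a description, without a test.

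Bulk RNA sequencing was done on corneas of Wistar rats that carried a corneal graft from SD donor rats. The control group received saline and the resveratrol group received resveratrol, a plant polyphenol, each by daily intraperitoneal injection until day 7 after surgery. There were 3 libraries per group, and both groups carried the allograft, so there is no ungrafted or untreated cornea among them. The labels do not give dose, age or sex, or say whether each library came from a separate animal. The spread between libraries may therefore be technical.

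E2F factors bind the promoters of genes for DNA replication and cell division, mostly as dimers with a DP protein. Pocket proteins hold E2F factors in a repressing state in resting cells, and cyclin-dependent kinases release them when a cell commits to dividing. E2F1 and E2F3 are known mainly as activators, E2F4 and E2F5 as partners of pocket proteins in repression, E2F6 as a repressor that works without pocket proteins, and E2F7 and E2F8 as atypical repressors that bind DNA without DP. RB1 is the retinoblastoma tumor suppressor. RBL1 (p107) and RBL2 (p130) are its relatives and are found in the DREAM complex, which silences cell cycle genes. In cornea, division is known to take place mainly in the basal and limbal epithelium, while an injured or grafted cornea also holds dividing stromal, vascular and immune cells.

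Total gene counts were 35068936 to 37460756 per library, and each member had between 171 and 2898 counts in a library, so depth was similar in both groups. In edgeR's quasi-likelihood test 0 of 14213 genes passed an adjusted p of 0.05 (0%), while 2782 genes (19.6%) had an unadjusted p under 0.05. DESeq2, run as an alternative, called 1007 of 14666 genes (6.87%). Log2 fold changes are resveratrol minus control ± standard error, and their median over all tested genes was -0.0080. Krt12, the keratin of corneal epithelium, and the other 7 epithelial markers of the list used all had counts, as the tissue label would have it. Bulk tissue cannot tell fewer cells of a type from less RNA per cell.

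The family covered a wide range of levels. Compared per transcript length, E2f4 was the most abundant member at 31.5 FPKM (fragments scaled to transcript length and library size, mean of 6 libraries, range 25.0 to 38.5). E2f6 followed at 12.5 FPKM (9.88 to 14.1), and its range did not overlap that of E2f4. The pocket proteins came next, with Rbl1 at 6.48 FPKM, Rbl2 at 5.80 FPKM and Rb1 at 4.84 FPKM, and each overlapped its neighbour in this order. E2f5 (2.88 FPKM), E2f7 (2.87 FPKM), E2f8 (2.33 FPKM) and E2f1 (2.19 FPKM) formed a lower group in which neighbouring ranges overlapped. E2f3 was lowest at 0.504 FPKM (0.409 to 0.713), below E2f1 in 6 of 6 libraries. Neighbours overlapped in 5 of the 9 steps of this order.

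**Figure D1:**
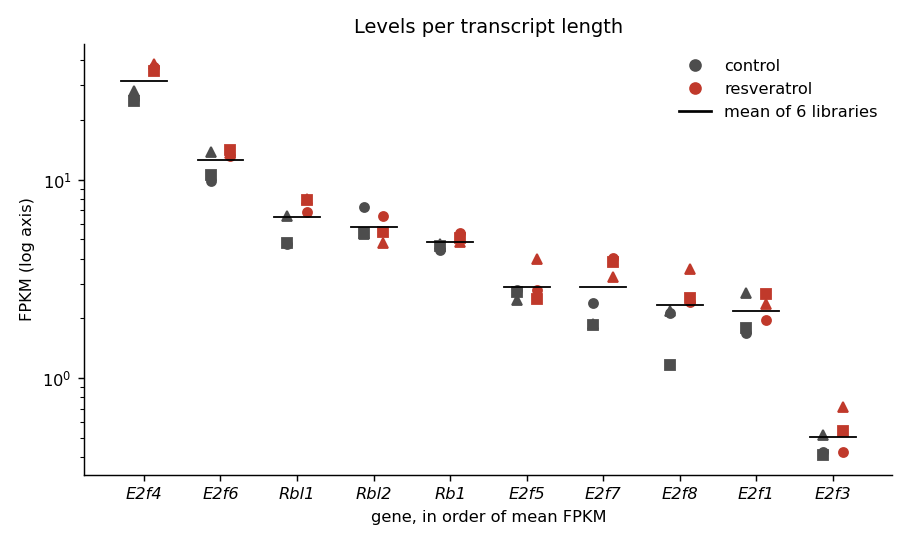
FPKM of each gene in each library (log axis), with control in grey, resveratrol in red and a black line at the mean of 6 libraries; circles, squares and triangles are replicates 1, 2 and 3. E2f4 lies above all other members in every library and E2f3 lies lowest.

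Of the summed FPKM of the 7 E2F members, E2f4 made up 56.2% ± 1.72 in control and 58.5% ± 1.25 in resveratrol (SD, n = 3). E2f4 and E2f6 together made up 80.6% ± 1.42 and 80.2% ± 1.06, so these repressor-type factors alone dominated the E2F transcripts to a like degree in both groups. The summed E2F level was 43.6 to 51.3 FPKM in control and 61.3 to 66.0 FPKM in resveratrol, and these ranges did not overlap. The summed pocket protein level was 14.8 to 16.7 FPKM in control and 17.6 to 18.9 FPKM in resveratrol, also without overlap. The ratio of the first sum to the second was 2.91 ± 0.179 in control and 3.45 ± 0.254 in resveratrol. Both sums largely restate single members of a set chosen with this contrast known. The mean E2F sum was 46.5 FPKM in control and 63.0 FPKM in resveratrol, with E2f4 at 26.1 and 36.9 FPKM. The mean pocket protein sum was 16.0 and 18.3 FPKM, with Rbl1 at 5.38 and 7.59 FPKM. E2f2, the remaining classical E2F gene, is outside this set; its level was 1.20 FPKM (0.818 to 1.64).

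Among the repressor-type factors, E2f4 separated the groups most cleanly. The set was chosen with the p-value of E2f4 in view, so this separation is a description and carries no weight as a test. E2f4 was at 52.2, 51.2 and 56.9 CPM (counts scaled to library size with TMM factors) in control libraries 1, 2 and 3 and at 76.6, 70.8 and 76.3 CPM in the resveratrol libraries. Every resveratrol library was above every control library, and the gap between the groups was wider than the spread within either. The mean was 53.4 ± 3.03 CPM in control and 74.6 ± 3.29 CPM under resveratrol, a log2 fold change of 0.48 ± 0.078 (1.40-fold). Non-overlapping groups with resveratrol higher occurred for 12.2% of all tested genes.

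E2f6, which recruits a Polycomb-type repressor complex, was at 25.1, 26.9 and 34.7 CPM in control, compared with 33.9, 35.3 and 33.6 CPM under resveratrol. Control 3 lay within the resveratrol range, so the groups overlapped, and the log2 fold change was 0.24 ± 0.13; it was 0.40 without control 3 and 0.16 without control 1. The resveratrol libraries were close to each other (SD 0.885 CPM), whereas control spread more widely (SD 5.12 CPM). E2f5, the relative of E2f4, was scarce and close to even, at 5.15, 5.03 and 4.61 CPM in control, compared with 5.24, 4.59 and 7.16 CPM under resveratrol. Its log2 fold change of 0.20 ± 0.20 was 0.0052 without resveratrol 3 and 0.33 without resveratrol 2.

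The atypical repressors had the 2 largest log2 fold changes of the family with all libraries included. E2f7 was at 8.19, 6.34 and 6.46 CPM in control, compared with 14.0, 13.0 and 10.7 CPM under resveratrol, with no overlap. Its log2 fold change was 0.85 ± 0.16 (1.80-fold), which ranked 124 from the top among the 14213 tested genes. E2f8 was at 11.2, 6.18 and 11.5 CPM in control, compared with 13.0, 13.2 and 18.1 CPM under resveratrol, a log2 fold change of 0.61 ± 0.26. Its groups did not overlap, but the highest control library and the lowest resveratrol library lay close together. Control 2 was far below the other control libraries, and without it the E2f8 log2 fold change was 0.38, below E2f4 (0.45) and Rbl1 (0.41). Without resveratrol 3 it was 0.45, also below E2f4 (0.47) and Rbl1 (0.46). The 2 genes also differed in which library was highest, resveratrol 1 for E2f7 and resveratrol 3 for E2f8.

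The activators differed less. E2f1, which drives entry into S phase, was at 9.66, 10.2 and 15.4 CPM in control, compared with 11.4, 14.9 and 13.2 CPM under resveratrol. The highest of the 6 values belonged to control 3, and the log2 fold change was 0.16 ± 0.20; it was 0.41 without control 3 and 0.045 without control 1. E2f3 was at 7.33, 7.07 and 8.93 CPM in control, compared with 7.40, 9.21 and 12.0 CPM under resveratrol (0.29 ± 0.20). Resveratrol 1 lay within the control range for E2f3, and the log2 fold change was 0.45 without resveratrol 1 and 0.10 without resveratrol 3. The ratio of E2f7 to E2f1 in FPKM was 1.05 ± 0.357 in control and 1.62 ± 0.373 in resveratrol, and its ranges overlapped (0.701 to 1.41 and 1.36 to 2.04).

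Of the pocket proteins, Rbl1 alone had groups that did not overlap. Rbl1, whose own promoter is a known E2F target, was at 23.6, 23.9 and 32.4 CPM in control, compared with 34.7, 38.4 and 38.4 CPM under resveratrol, a log2 fold change of 0.48 ± 0.14 (1.39-fold). Control 3 was nearer to the resveratrol libraries than to the other control libraries. Rb1 was at 41.0, 43.1 and 44.0 CPM in control, compared with 50.6, 46.3 and 43.6 CPM under resveratrol (0.13 ± 0.085), with resveratrol 3 inside the control range and 0.081 without resveratrol 1. Rbl2, the pocket protein typical of resting cells, stood at 52.9, 39.1 and 38.9 CPM in control, compared with 48.5, 39.0 and 33.8 CPM under resveratrol. Its log2 fold change of -0.11 ± 0.17 was the only negative value in the family, and it was 0.056 without control 1 and 0.014 without resveratrol 3. Rbl1 made up 33.6% ± 5.26 of the summed pocket protein FPKM in control and 41.6% ± 4.51 in resveratrol, Rbl2 37.5% ± 6.11 and 30.6% ± 3.94, and Rb1 28.9% ± 2.24 and 27.8% ± 0.583.

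**Figure D2:**
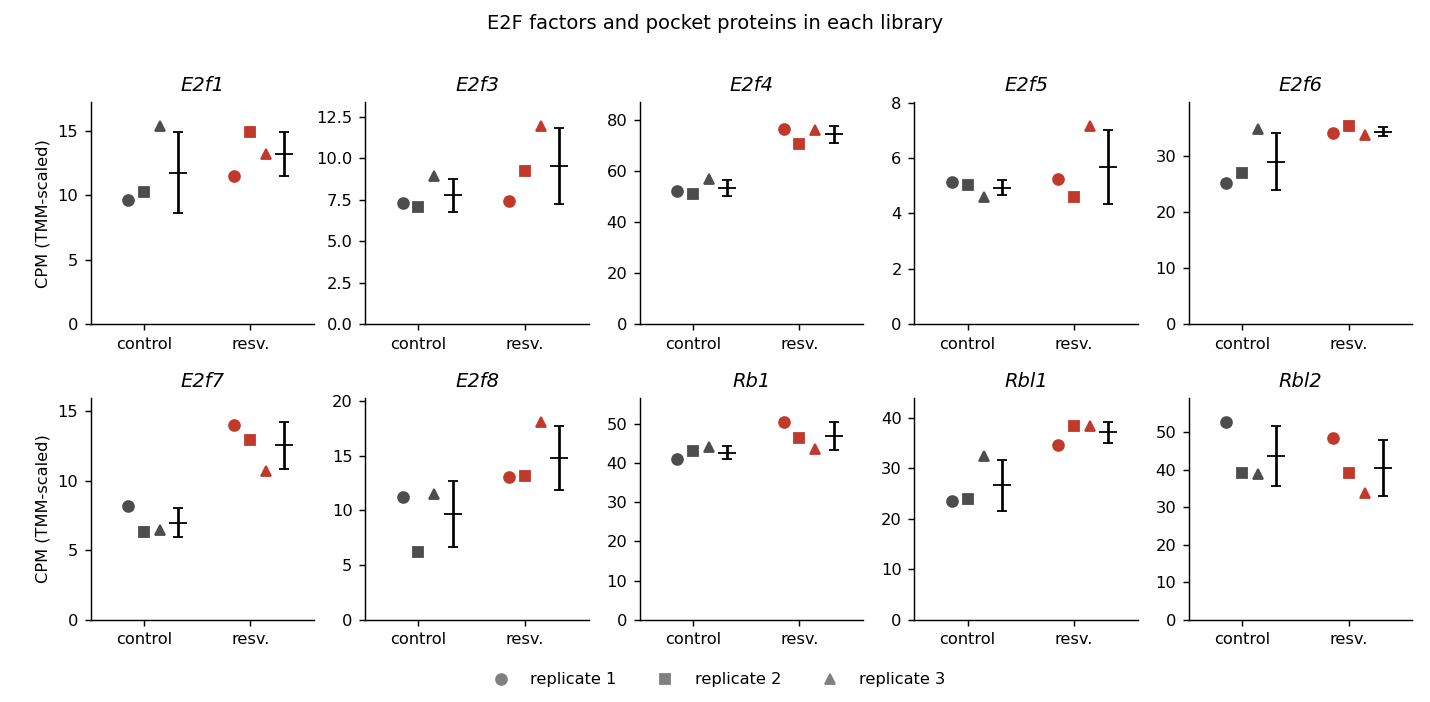
TMM-scaled CPM of the 10 genes in each of the 3 control (grey) and 3 resveratrol (red) libraries, with the mean and SD of each group in black and every axis starting at 0. E2f4, E2f7, E2f8 and Rbl1 have no overlap between the groups, and Rbl2 is the member with the lower mean in resveratrol.

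Across the family, 9 of 10 members had a higher mean in resveratrol, where 48.8% of all tested genes did. The median log2 fold change was 0.27 over the members. The 4 members without overlap, all higher, were E2f4, E2f7, E2f8 and Rbl1, against 12.2% of all tested genes, and 0 members were lower without overlap, against 14.4%. These 4 also had an unadjusted edgeR p under 0.05 with a higher mean, as 7.84% of tested genes did, and 0 members passed after adjustment. DESeq2 called E2f4, E2f7 and Rbl1, where it called 2.23% of genes higher and 4.64% lower. Because the set was chosen with this contrast known, these counts describe it and carry no weight as a test. The labels carry a suffix, Sep on replicate 1 of each group and Oct on replicates 2 and 3, whose meaning is not stated. The mean was higher in resveratrol for 9 of 10 members both in the Sep libraries, 1 per group, and in the Oct libraries, and the exception was Rbl2 in each. E2f4 differed by 0.55 in Sep and 0.44 in Oct on the log2 scale, and Rbl1 by 0.55 and 0.45, while E2f8 differed by 0.21 and 0.82.

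Promoter sequence bears on this family because several members are themselves E2F targets. RefSeq promoter windows (build GRCr8) of 300 bases, from 250 before to 50 after the annotated start, were matched by symbol for 6 of the 10 members, E2f3, E2f6, E2f7, Rb1, Rbl1 and Rbl2. The other members are E2f1, E2f4, E2f5 and E2f8. Both strands were searched for the E2F words TTTCCCGC, TTTCGCGC, TTTGCCGC and TTTGGCGC, for TTTGAA, a core of the cell cycle homology region, and for CCAAT, the NF-Y box. An E2F word occurred in E2f3, Rb1 and Rbl1, and in 2.14% of all 33469 windows and 3.99% of those of tested genes. The windows below are shown because they carry these matches or, for E2f7, the member with the largest fold change, a pair of NF-Y boxes. Each reads 5′ to 3′ on the gene's strand; capitals mark the E2F word, or its reverse complement in E2f3, and in E2f7 the reverse complement of CCAAT.
Rbl1, chr3:166289377-166289526, minus strand, bases -150 to -1: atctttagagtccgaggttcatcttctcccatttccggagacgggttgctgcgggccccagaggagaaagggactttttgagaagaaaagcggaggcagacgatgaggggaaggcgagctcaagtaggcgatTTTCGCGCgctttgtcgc
E2f3, chr17:34810266-34810415, plus strand, bases -150 to -1: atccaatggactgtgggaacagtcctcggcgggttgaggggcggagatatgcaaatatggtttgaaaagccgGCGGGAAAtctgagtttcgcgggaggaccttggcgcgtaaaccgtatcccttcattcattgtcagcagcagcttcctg
Rb1, chr15:54911837-54911866, minus strand, a short stretch around the match: ggaagtgacgtTTTCCCGCggttggcccgg
E2f7, chr7:48036753-48036902, plus strand, bases -150 to -1: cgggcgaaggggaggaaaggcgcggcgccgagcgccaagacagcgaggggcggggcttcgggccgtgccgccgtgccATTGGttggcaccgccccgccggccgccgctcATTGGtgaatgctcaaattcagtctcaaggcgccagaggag

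The E2F word lay at bases -18 to -11 in Rbl1, at -78 to -71 in E2f3 and at 3 to 10 after the start in Rb1. TTTGAA occurred in E2f3 (-90 to -85) and Rbl2 (5 to 10), and in 18.3% of all windows. In E2f7 the CCAAT matches on the opposite strand lay at -73 to -69 and -41 to -37; E2f3 had 3 CCAAT matches, and 37.5% of all windows had at least 1. The E2f6 window held none of these words. Of the members with an E2F word, Rbl1 had groups without overlap, while the groups of E2f3 and of Rb1 overlapped. Of those with a window but no E2F word, E2f7 had groups without overlap, while the groups of E2f6 and of Rbl2 overlapped. Of all tested genes 12.2% were higher without overlap.

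Outside the family, 431 tested genes had an E2F word in their window, and 282 of them (65.4%) had a higher mean in resveratrol, against 48.9% of the 10444 genes without. Their median log2 fold change was 0.080, against -0.0079. Among windows with over 60% G and C the shares were 67.4% of 258 genes and 52.9% of 5400 genes. With the pathway genes named below left out, it was 64.2% of 416 genes. The words were chosen with the results known, genes measured in the same 6 libraries are not independent, and a match is no evidence of binding.

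The genes that work with the family were read from lists of 101 genes in all, with 95 tested. edgeR called 0 of them after adjustment (smallest adjusted p = 0.116), 18 were higher and 1 lower at an unadjusted p under 0.05, where 7.84% and 11.7% of all tested genes were. DESeq2 called 6, of which 5 were higher (Tfdp1, Brca1, Mcm5, Pcna and Cdt1) and Cdkn1c was lower, where it called 6.87% of all genes, 2.23% higher and 4.64% lower. Cdt1 lies outside the rule for named genes and was named after its value was seen. Of the pathway genes 81 of 95 had a higher mean, with a median log2 fold change of 0.23.

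Tfdp1, the main DP partner of E2F factors, was at 91.6, 79.1 and 91.7 CPM in control, compared with 113, 109 and 122 CPM under resveratrol. The groups did not overlap, and the log2 fold change was 0.39 ± 0.088 (edgeR adjusted p = 0.121, DESeq2 adjusted p = 0.00832, and 0.119 to 0.294 over the other 17 alternatives). Per length Tfdp1 stood at 32.9 FPKM, close to E2f4, while Tfdp2, the other DP gene tested, stood at 1.11 FPKM. Tfdp2 was at 9.63 ± 0.914 CPM in control and 9.71 ± 2.11 CPM under resveratrol, with overlapping groups.

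The MuvB core, which joins pocket proteins and E2F4 in DREAM, and its activating partners overlapped between the groups in 6 of 7 genes. Lin54 was higher without overlap, as 12.2% of all tested genes were. Rbbp4, a histone-binding subunit, was at 68.3 ± 5.15 and 70.5 ± 0.973 CPM, and Lin54, the DNA-binding subunit, at 19.3 ± 1.54 and 23.0 ± 1.92 CPM (0.25 ± 0.11, edgeR adjusted p = 0.260). Mybl2 and Foxm1, which take over from DREAM in dividing cells, had log2 fold changes of 0.52 ± 0.28 and 0.52 ± 0.27, and both overlapped between the groups. Without control 2 they were 0.27 and 0.32, and without resveratrol 3 they were 0.32 and 0.25. Of the 7 genes 6 had a higher mean.

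Upstream of the pocket proteins, 6 of 8 G1 cyclin and kinase genes had a higher mean. Ccnd1, the cyclin that starts the release of E2F from pocket proteins, was at 146, 160 and 172 CPM in control, compared with 190, 239 and 193 CPM under resveratrol. Its groups did not overlap (0.38 ± 0.11; edgeR adjusted p = 0.161, DESeq2 adjusted p = 0.0524, other alternatives 0.136 to 0.357). Its kinase partner Cdk6 (0.13 ± 0.14) and the S phase kinase Cdk2 (0.21 ± 0.15) overlapped between the groups. Of 7 CDK inhibitor genes 6 had a lower mean in resveratrol, with a median log2 fold change of -0.11. Cdkn1c, which encodes the inhibitor p57, was at 14.2, 12.7 and 11.6 CPM in control, compared with 7.35, 9.23 and 6.50 CPM under resveratrol. Every resveratrol library was lower than every control library for Cdkn1c (-0.74 ± 0.17; edgeR adjusted p = 0.121, DESeq2 adjusted p = 0.00568, other alternatives 0.115 to 0.294). Cdkn1a (p21) was at 82.3 ± 21.0 and 76.5 ± 11.5 CPM, Cdkn2b at 77.6 ± 18.8 and 74.4 ± 2.61 CPM and Cdkn2d at 9.52 ± 1.34 and 13.0 ± 4.24 CPM, all with overlap.

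Other regulators showed small differences. Of 7 genes 6 had a higher mean, among them Dyrk1a, the kinase that promotes DREAM assembly (0.16 ± 0.086), and Mdm2 (0.14 ± 0.11). Ppp1ca, a phosphatase that acts on RB, was at 308 ± 2.53 and 293 ± 15.4 CPM (-0.075 ± 0.070). It was lower in resveratrol without overlap, as 14.4% of all tested genes were. The repressor complex of E2F6 had a higher mean in 10 of 11 tested genes, with a median log2 fold change of 0.11. Its examples were Wdr5 (0.26 ± 0.093, edgeR adjusted p = 0.204), Mga (0.23 ± 0.11), Max (0.11 ± 0.068) and Hdac1 (0.0064 ± 0.076). Of the 11 genes 3 were higher without overlap (Wdr5, Mga and Max) and 1 lower (Yaf2, named after its value was seen), where 12.2% and 14.4% of all tested genes were. Of the listed germline genes that E2F6 is known to silence, those counted were at or near 0. Slc25a31 and Mael, also in this list, were not among the genes counted, so their levels are unknown. Stag3 had 5 counts and Smc1b and Ddx4 had 1 count each over all 6 libraries, and Tdrkh was tested at 0.449 ± 0.0995 and 0.396 ± 0.186 CPM.

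E2F targets of the G1/S transition, the genes for replication and its nucleotides, had a higher mean in 29 of 30 cases, with a median log2 fold change of 0.33. At an unadjusted edgeR p under 0.05, 15 of 30 were higher and 0 lower, where 7.84% of all tested genes were higher. The list was chosen with earlier results of these data known, and its genes are not independent. The count therefore carries no weight as a test. Leaving out libraries was a check added after the data were seen. The count was 9, 5 and 19 without control 1, 2 and 3, where 7.26%, 4.41% and 6.97% of all genes tested in those fits were higher. It was 14, 11 and 4 without resveratrol 1, 2 and 3, where 6.71%, 6.06% and 6.3% were higher. With the replicate number as a block it was 19, where 8.36% of all tested genes were higher. Brca1, a DNA repair gene, was at 8.80, 7.13 and 8.98 CPM in control, compared with 12.5, 12.4 and 14.7 CPM under resveratrol (0.67 ± 0.14; edgeR adjusted p = 0.116, DESeq2 adjusted p = 0.00320, other alternatives 0.113 to 0.285). Pcna, the clamp of the replication polymerases, was at 84.0, 70.5 and 97.9 CPM in control, compared with 108, 113 and 122 CPM under resveratrol (0.45 ± 0.12; edgeR adjusted p = 0.146). Mcm5, a subunit of the replicative helicase, was at 47.5 ± 7.96 and 67.8 ± 6.51 CPM, and Rrm1, a subunit of ribonucleotide reductase, at 97.7 ± 12.3 and 123 ± 14.3 CPM. Brca1, Pcna, Mcm5 and Rrm1, which include the 2 with the smallest p, were among the 15 of 30 that were higher without overlap, where 12.2% of all tested genes were. E2f2, counted in this list, was the exception with -0.035 ± 0.28.

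Genes of G2 and mitosis, which DREAM holds down in resting cells, had a higher mean in 21 of 22 cases and a median log2 fold change of 0.30. Groups without overlap occurred in 0 of 22, where 12.2% of all tested genes were higher and 14.4% lower without overlap. An unadjusted edgeR p under 0.05 occurred in 0, where 7.84% of all tested genes were higher and 11.7% lower. DESeq2 called 0, where it called 2.23% of all genes higher and 4.64% lower. Mki67, the Ki-67 proliferation marker, was at 127, 47.8 and 73.1 CPM in control, compared with 96.5, 103 and 158 CPM under resveratrol. Control 1 was thus above 2 of the resveratrol libraries. Top2a, which untangles chromosomes, was at 70.6 ± 25.9 and 97.3 ± 24.0 CPM, and Ube2c, which acts with the anaphase complex, at 18.7 ± 4.38 and 25.8 ± 8.86 CPM. The log2 fold changes of Mki67, Top2a and Ube2c were 0.52, 0.46 and 0.47, and they were 0.25, 0.22 and 0.31 without control 2 and 0.28, 0.25 and 0.17 without resveratrol 3. The mean differences of this list were close to those of the G1/S list, while the spread within the groups was wider. An E2F word lay in 12 of 22 windows matched for the G1/S list and in 1 of 18 for the G2/M list, whereas TTTGAA lay in 2 of 22 and 12 of 18.

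**Figure D3:**
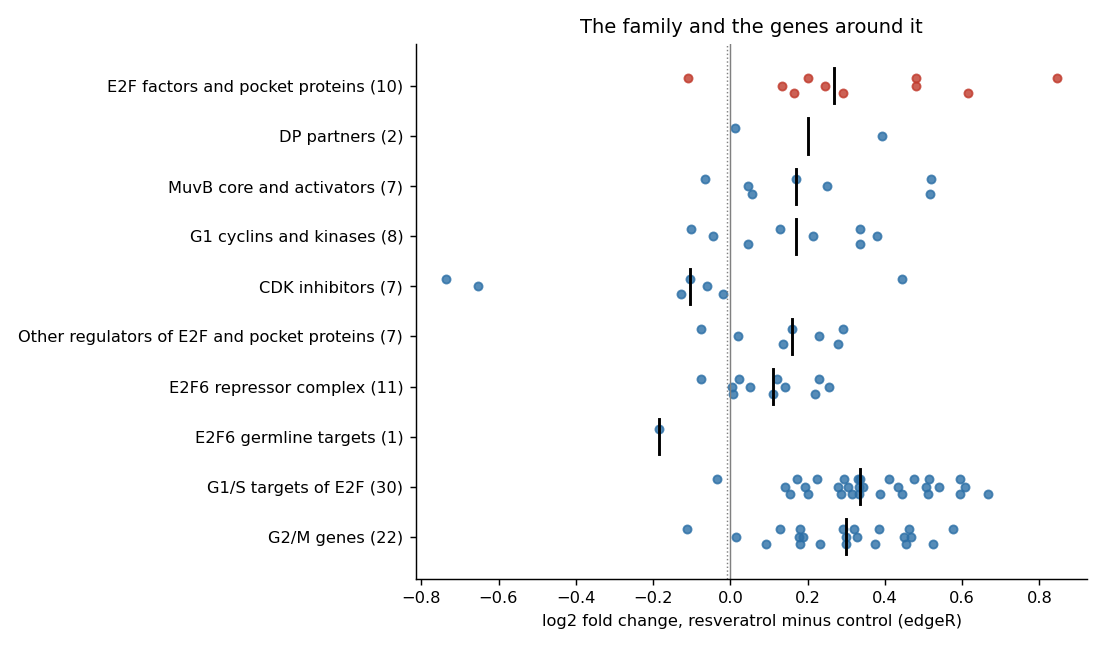
Log2 fold change (resveratrol minus control, edgeR) of each tested gene of the family (red) and of the lists around it (blue), with list medians as black bars, the number of tested genes in brackets and a dotted line at the median of all tested genes. The medians are 0.27 for the family, 0.33 for G1/S targets, 0.30 for G2/M genes and -0.11 for CDK inhibitors.

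Patterns across the 6 libraries set E2f4 and E2f8 apart. Likeness was taken as the root mean square difference between profiles of log2 CPM, each centred on its own mean. The genes nearest to E2f4 were PCOLCE2 (0.033), Spen (0.044) and Rif1 (0.045), the first a collagen-processing enhancer, the second a transcriptional corepressor and the third a regulator of replication timing. All 3 had groups without overlap, with log2 fold changes of 0.50, 0.47 and 0.50, which follows from their choice by likeness to E2f4. The genes nearest to E2f8 were Bard1 (0.065), the binding partner of BRCA1, and the kinetochore genes Zwilch (0.078) and Ska3 (0.10). These shared the low value of control 2 and the high value of resveratrol 3, again because they were chosen by likeness to E2f8. Ska3, for example, was at 10.5, 5.28 and 10.6 CPM in control, compared with 9.78, 11.4 and 15.4 CPM under resveratrol. The profile of E2f4 did not show this dip in control 2.

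**Figure D4:**
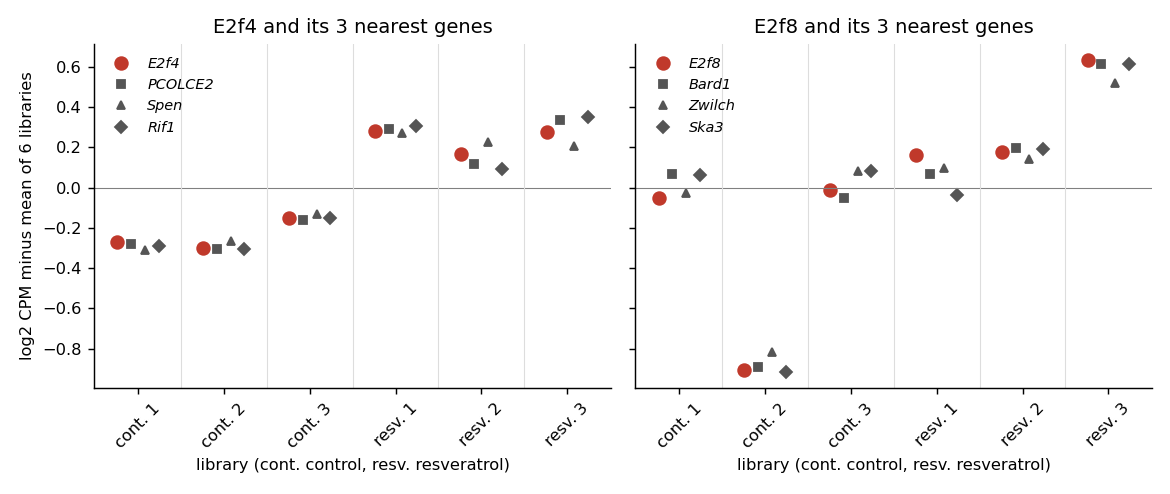
Log2 CPM minus the mean of the 6 libraries for E2f4 (left) and E2f8 (right), in red, and their 3 nearest genes, in grey, by library. E2f4 and its neighbours are low in all control and high in all resveratrol libraries, whereas E2f8 and its neighbours are lowest in control 2 and highest in resveratrol 3.

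Markers of several cell types moved with the treatment groups as well. The summed level of 10 macrophage markers was 469 to 967 CPM in control and 309 to 535 CPM under resveratrol, and 9 of the 10 had a lower mean. For 8 T cell markers the sum was 30.7 to 61.4 CPM and 17.2 to 28.0 CPM, with 7 of 7 tested lower. Cd4 made up most of this sum in every library, with 41.0 of 61.4 CPM in control 1 and 13.1 of 17.2 CPM in resveratrol 1. Cd3e was scarce, at 0.804 to 2.73 CPM in control and 0.218 to 0.685 CPM under resveratrol. For 8 blood vessel markers the sum was 492 to 668 CPM and 322 to 409 CPM, with 8 of 8 lower. For 7 keratocyte and fibroblast markers it was 15241 to 22984 CPM and 9949 to 13674 CPM, with 7 of 7 lower. Among the last, Col1a1, Col1a2 and Col3a1 differed by -0.97, -0.91 and -1.29 on the log2 scale, and Lum, Kera, Dcn and Pdgfra by -0.26, -0.19, -0.071 and -0.060. The sum of 8 corneal epithelial markers overlapped, at 84611 to 93951 CPM and 83487 to 97777 CPM, with 6 of 8 higher. For 5 neutrophil markers listed, the sum was 225 to 594 CPM and 168 to 207 CPM, and all 4 tested were lower. No marker listed was at 0 in all libraries. The part of these shifts in the values of the E2F and pocket protein genes was not tested. The per-library median of the family was -0.20, -0.26 and -0.017 in control 1, 2 and 3 and 0.16, 0.17 and 0.24 in resveratrol, on the centred log2 scale. Control 3 was the control library nearest to the resveratrol libraries in this median and in those of the macrophage, T cell, vessel and keratocyte markers. The furthest control library differed. It was control 2 for the family (-0.26) and control 1 for these marker lists (0.73, 1.32, 0.59 and 0.54).

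**Figure D5:**
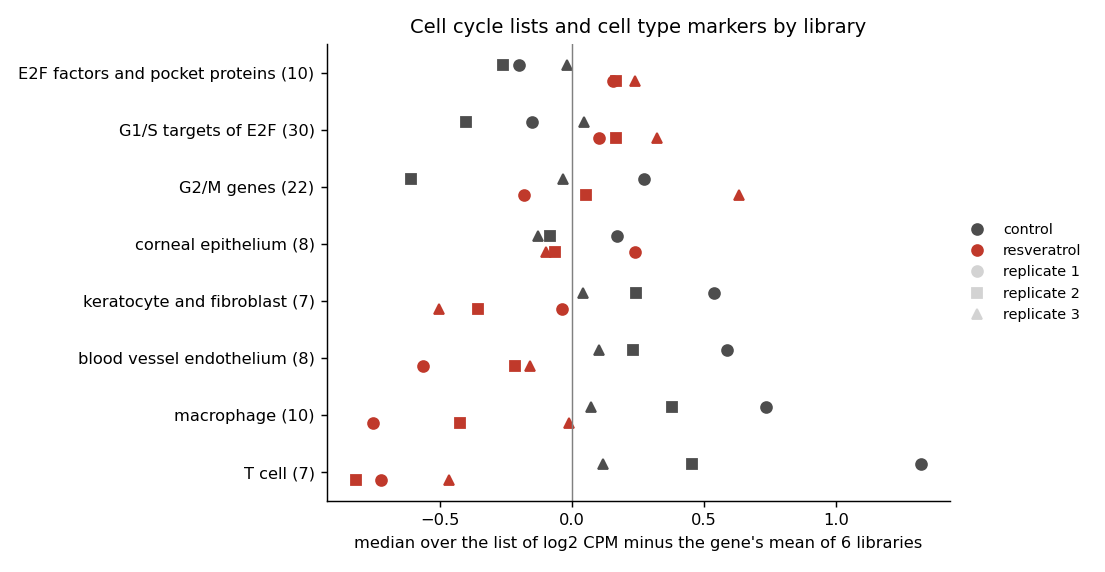
Median over each list of log2 CPM minus the gene's mean of the 6 libraries, 1 point per library, with control in grey, resveratrol in red, replicates by shape and the number of genes in brackets. The E2F family and the G1/S targets are higher in all resveratrol libraries, and the G2/M and corneal epithelial lists overlap. The keratocyte, vessel, macrophage and T cell lists are lower in all resveratrol libraries.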

How the data were processed

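The authors deposited unnormalized counts per gene and, for the same genes, FPKM values, per the file headers. FPKM files of single libraries matched that table for 6 of 6. Per the submitters' processing notes mRatBN7.2, R 3.2.0 and DESeq2 were used, with no roles named. The aligner, counter, annotation and strand setting were not given in the sources used here. Header names in the count table lacked a separator, so columns were assigned by name. Counts were filtered with filterByExpr (0.0237% of counts left out), scaled with TMM and fitted with edgeR 4.0.16 (glmQLFit, glmQLFTest, no covariate, R 4.3.3) over 14213 genes, p-values being adjusted by Benjamini-Hochberg and called under 0.05. Standard errors are from limma 3.58.1 (trend, prior count of 2). DESeq2 1.42.0 was an alternative. The scripts were tested on simulated data.

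The members and gene lists were chosen with earlier results of these data known. Named pathway genes are, per list, the 2 with the highest mean CPM and the 2 with the smallest edgeR p. Nearest genes exclude locus identifiers. E2f5 has a pseudogene in RefSeq, and the treatment of reads that fit both is unknown, so its level is uncertain. Counting error is relatively largest for low genes such as E2f5.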

Additional observations from a re-analysis of the deposited data

How the results depend on the processing

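The members' count with a higher mean was 9 to 10 of 10 under the 18 alternatives, with 10 without control 1 and without resveratrol 3, where Rbl2 turned positive. E2f4 stayed between 0.45 and 0.53, E2f7 between 0.63 (limma on log2(FPKM + 1)) and 0.98, and Rbl1 between 0.40 and 0.65. The order of levels had 5 overlapping neighbours with FPKM and with FPKM rescaled to equal sums.

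Of all genes edgeR called 0 and DESeq2 1007; leaving out a library gave 0 to 21 calls, 21 without control 3 and 1 without resveratrol 2. Of the pathway genes edgeR called 0 and DESeq2 6, and 0 were called in every fit that left out a library. Deviations of same-numbered libraries from their group means correlated at -0.0044, -0.012 and -0.023 over all tested genes. A correlation over all genes cannot show whether some genes share an effect of replicate number. On the second axis of a principal component analysis of log2 CPM (19.4% of variance), control 1 was at 30.3 and resveratrol 1 at 20.1. The other libraries lay between -21.4 and -2.66 on that axis. With the replicate block 0 genes were called, 0 of them pathway genes, and 9 members had a higher mean.

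Besides Rbl2, signs turned for 6 named pathway genes with values near 0 or wide spread. Tfdp2 was -0.013 with upper quartile factors, -0.010 with limma voom, -0.0085 with the replicate block and -0.0064 in the Oct libraries alone. Hdac1 was -0.017 with upper quartile factors, -0.0040 with the stricter filter and -0.0022 in the Oct libraries, and Cdkn2b was 0.15 in the Oct libraries. Leaving out a library at a time gave -0.078 to 0.19 for Tfdp2, -0.030 to 0.056 for Hdac1, -0.22 to 0.14 for Cdkn2b, -0.30 to 0.044 for Cdkn1a, -0.60 to 0.086 for Tdrkh and -0.014 to 0.088 for Rbbp4. The cause was not tested. The lowest count of a member in a library was 171.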
